A study of Sus scrofa with 32 samples.

Results

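The genes described here were 34 genes of cholesterol synthesis, cholesterol uptake and transport, and control by the sterol regulatory element binding proteins (SREBPs), chosen by name. Their pig gene symbols were matched to the NCBI gene identifiers of the count tables, and 33 of the 34 were found among 30185 annotated genes. The remaining symbol, IDI1, had no entry, and LOC100625049, whose annotated product is isopentenyl-diphosphate Delta-isomerase 1, is given beside the 33 and left out of their counts. INSIG2 was read from its protein-coding entry, and a pseudogene copy that carries the same symbol makes the assignment of its reads uncertain. The list is not the whole pathway.

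Cells make cholesterol from acetyl-CoA. The mevalonate arm builds isoprenoid units, squalene synthase joins these into squalene, and the sterol arm closes the rings and trims lanosterol to cholesterol. SREBPs are made as membrane proteins of the endoplasmic reticulum, where SCAP carries them to the Golgi for cleavage when sterols are scarce and the INSIG proteins hold them back when sterols are plentiful, and the cleaved factors then switch on the synthesis genes and INSIG1. Liver X receptors (LXRs), in contrast, are activated by oxysterols and switch on the efflux genes ABCA1 and ABCG1 and also MYLIP, whose product limits lipoprotein uptake. In the endometrium cholesterol is needed for membranes and lipid rafts of the epithelium that faces the conceptus and can be passed on to it.

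Laser capture microdissection (LCM), which cuts chosen cells out of a tissue section under the microscope, was applied to endometrium collected on Day 14 from synchronized gilts, and 4 compartments were sequenced one by one: the luminal epithelium (LE) that lines the lumen, the epithelium of the glands (GE), blood vessels (BV) and stroma (S). Pregnant gilts had been inseminated with semen and cyclic gilts with sperm-free semen supernatant of the same boar, and all of them had received hormones to induce and time ovulation. Pregnant samples came from hyperemic zones, where conceptuses attach, so the pregnant state and the choice of zone cannot be told apart. There were 4 gilts per state and 1 library per gilt and compartment, which gave 31 libraries, since pregnant GE had 3 libraries (that of gilt P41 was not analysed here). Gilts are named by their number in the labels, with C for cyclic and P for pregnant. BV was captured from larger vessels.

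The libraries held between 2415216 and 7081556 counts, and 3 counts corresponded to 0.424 to 1.24 counts per 1e6 counts of the library (CPM). Levels are given below as CPM scaled by the trimmed mean of M values (TMM), with the SD over libraries of a group (n = 4, or 3 in pregnant GE). Log2 fold changes compare pregnant with cyclic gilts and are given with their standard error (SE) and the Benjamini-Hochberg adjusted p of edgeR's quasi-likelihood test over all detectable genes of the compartment. Each SE was back-calculated from that test, as the absolute log2 value divided by the square root of its F. In LE, genes with an adjusted p of at most 1% were called, and the p before adjustment at which this threshold fell (0.000328) served as the limit for GE, BV and S. In tissue pieces, fewer cells of a type and less RNA per cell cannot be told apart. The summed level of 6 epithelial markers was 2499 to 3079 CPM in cyclic LE, 1703 to 2101 in pregnant LE, 1170 to 1460 in GE, 2.56 to 40.2 in cyclic BV, 129 to 236 in pregnant BV and 8.38 to 385 in S. The 6 fibroblast markers summed to 4097 to 16514 CPM in LE and to 36616 to 106304 CPM in S.

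In LE, genes of cholesterol synthesis were lower in pregnant than in cyclic gilts in both arms of the pathway. All 17 tested genes of the 2 synthesis arms had a negative log2 fold change (median −1.74), 10 of them were called, and in 14 the 4 pregnant libraries all lay below the 4 cyclic ones. Of the 33 genes, 27 were lower and 11 were called, all of them lower (HMGCS1, ACAT2, MVD, SQLE, LSS, CYP51, TM7SF2, MSMO1, EBP, SC5D and STARD4), and their median log2 fold change was −1.25 against −0.01 over the 12002 genes tested. Among all genes tested in LE 3.32% were called and 1.29% were called as lower, and in 9.12% all pregnant libraries lay below all cyclic ones, as they did for 17 of the 33. The summed level of the 17 synthesis genes was 2802 to 3704 CPM in cyclic LE and 748 to 1196 CPM in pregnant LE.

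**Figure D1:**
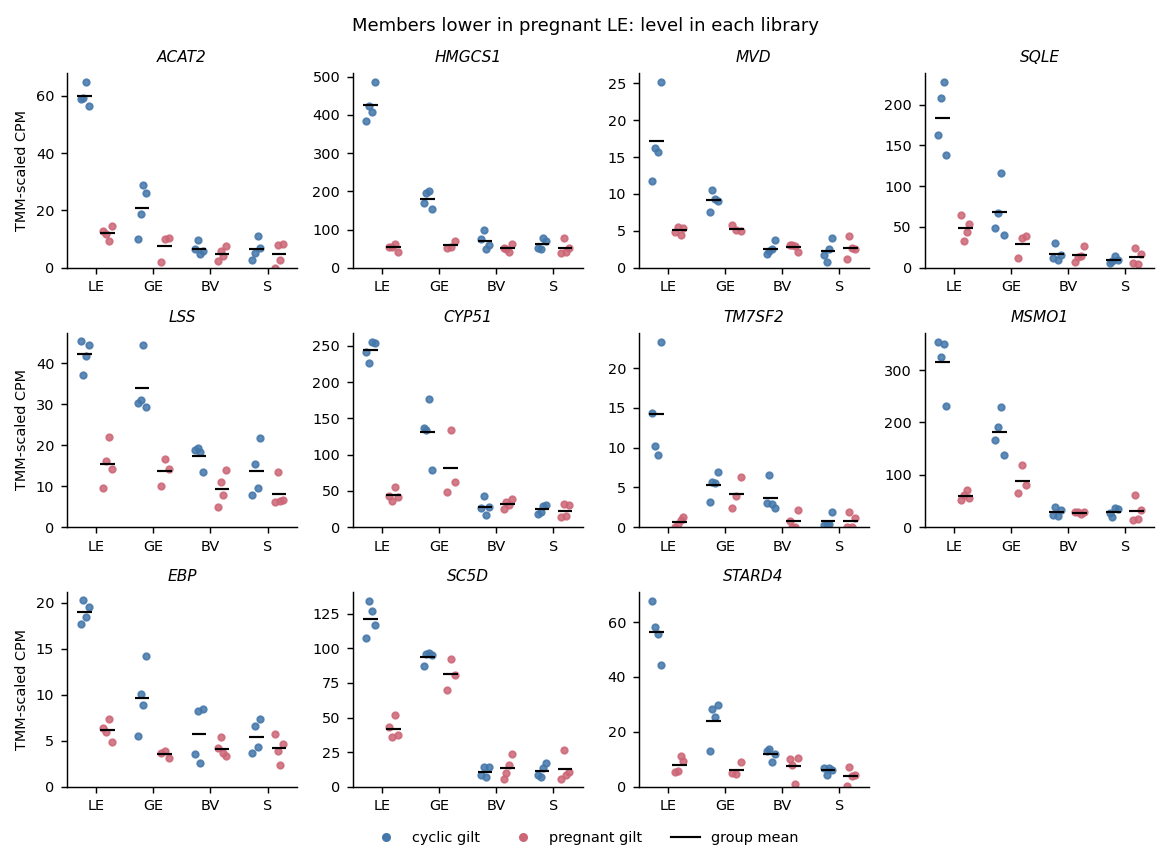
TMM-scaled CPM (vertical axis, from 0) of the 11 genes called as lower in pregnant LE, in LE, GE, BV and S; each point is 1 library of a cyclic (blue) or pregnant (red) gilt and each bar a group mean. In each panel the 4 pregnant LE libraries lie below the 4 cyclic ones, and for HMGCS1 they lie at 40.9 to 61.5 CPM, near the S libraries.

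In the mevalonate arm, HMGCS1 (chr16:27936225-27957261, Sscrofa11.1), which makes HMG-CoA, had 384, 407, 424 and 487 CPM in the cyclic LE libraries and 40.9, 54.1, 55.4 and 61.5 CPM in the pregnant ones. Its mean was 8.03-fold lower in pregnant LE (log2 fold change −2.99, SE 0.17, adjusted p = 7.11e-05), and by p it ranked 4 among the 12002 genes tested. ACAT2 (chr1:7600616-7612861), the thiolase that makes acetoacetyl-CoA at the start of the pathway, had 56.5, 58.98, 59.3 and 64.6 CPM in cyclic and 9.28, 11.7, 12.7 and 14.4 CPM in pregnant LE (log2 fold change −2.30, SE 0.18, adjusted p = 0.000309). The pregnant libraries were close to each other for both genes and far below the cyclic ones. MVD (chr6:1008100-1014303), which decarboxylates mevalonate pyrophosphate, had 11.8, 15.7, 16.3 and 25.2 CPM in cyclic and 4.48, 4.77, 5.40 and 5.57 CPM in pregnant LE (log2 fold change −1.74, SE 0.27, adjusted p = 0.00602). The other genes of this arm, the kinases MVK and PMVK and the farnesyl pyrophosphate synthase FDPS, had log2 fold changes of −0.67, −1.25 and −1.75 and were not called (adjusted p = 0.183, 0.0179 and 0.0174). LOC100625049 (chr10:68534520-68539279), annotated as the isomerase between MVD and FDPS, fell as well, from 117 ± 14.7 to 15.8 ± 5.66 CPM (log2 fold change −2.90, SE 0.27, adjusted p = 0.000683). ACAT2 shares 94 exonic bases with TCP1 on the opposite strand, and whether reads were counted by strand is not given in the sources used here.

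In the sterol arm, CYP51 (chr9:72057506-72079587), the lanosterol demethylase, had 226, 241, 254 and 256 CPM in cyclic and 35.8, 41.4, 42.6 and 55.7 CPM in pregnant LE (log2 fold change −2.46, SE 0.18, adjusted p = 0.000156). MSMO1 (chr8:43726834-43745784), the methylsterol monooxygenase that acts after it, had 231, 325, 349 and 354 CPM in cyclic and 52.2, 56.6, 61.1 and 70.1 CPM in pregnant LE (log2 fold change −2.38, SE 0.20, adjusted p = 0.000376). These 2 genes ranked 12 and 17 by p in LE, and their groups were separated by a gap wider than either group's range. SQLE (chr4:14669789-14700152), the squalene epoxidase, had 138, 162, 209 and 228 CPM in cyclic and 32.3, 43.5, 53.2 and 64.3 CPM in pregnant LE (log2 fold change −1.92, SE 0.27, adjusted p = 0.00351). LSS, which closes the rings to lanosterol and lies on an unplaced scaffold, had 37.1, 41.9, 44.4 and 45.4 against 9.55, 14.1, 16.1 and 22.1 CPM (log2 fold change −1.43, SE 0.24, adjusted p = 0.0075). TM7SF2 (chr2:7076778-7081502), a sterol reductase, was nearly undetected in pregnant LE: the cyclic libraries had 9.10, 10.3, 14.4 and 23.3 CPM and the pregnant ones 0, 0.428, 0.960 and 1.29 CPM, or 11 counts in all 4 together against 229 (log2 fold change −4.36, SE 0.61, adjusted p = 0.00367). The pregnant values were at or near the level of 3 counts, which limits the precision of this fold. The late enzymes EBP (chrX:42670592-42678571), a sterol isomerase, and SC5D (chr9:48357115-48372391), a sterol desaturase, fell as well. EBP had 17.7, 18.4, 19.5 and 20.3 CPM in cyclic and 4.88, 5.998, 6.36 and 7.36 CPM in pregnant LE (log2 fold change −1.61, SE 0.20, adjusted p = 0.00248). SC5D had 107, 117, 127 and 134 CPM in cyclic and 35.8, 37.3, 42.96 and 51.5 CPM in pregnant LE (log2 fold change −1.53, SE 0.17, adjusted p = 0.0016), and 1485 of its 2232 exonic bases overlap LOC106504896 on the opposite strand, which leaves its reads uncertain.

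The 4 other genes of the sterol arm were not called in LE. FDFT1, the squalene synthase, had a log2 fold change of −0.54 (adjusted p = 0.222), the smallest of the synthesis genes, and NSDHL, a sterol dehydrogenase, had −0.88 (adjusted p = 0.0212). DHCR7, the last reductase, had −1.67 (adjusted p = 0.0278), and HSD17B7, a ketosteroid reductase that also acts on estrone, had −1.95 (adjusted p = 0.0456). HSD17B7 varied widely, with 40.9, 133, 150.3 and 234 CPM in cyclic and 19.7, 26.7, 33.6 and 63.8 CPM in pregnant LE, and the groups overlapped. By exon length, the highest level among the 33 genes in cyclic LE was that of FDPS, with a mean of 699 CPM per kb, ahead of MSMO1 with 162 and FDFT1 with 132. In pregnant LE FDPS stayed first with 206 CPM per kb, followed by ABCA1 with 109.5 and FDFT1 with 90.2, and MSMO1 stood at 30.9. The cyclic FDPS level was uneven, at 729 to 926 CPM in gilts C40, C42 and C78 and 1837 CPM in gilt C128.

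Of the 11 calls in LE, those of ACAT2, HMGCS1, CYP51, MSMO1, SC5D and STARD4 held when any 1 of the 8 LE libraries was left out. MVD lost its call without cyclic gilt C42 or any 1 of the pregnant gilts (adjusted p up to 0.024), SQLE without cyclic gilts C40 or C42 or pregnant gilts P139 or P43 (up to 0.0154), and LSS without any 1 library other than that of pregnant gilt P43 (up to 0.0259). TM7SF2 lost it without cyclic gilts C40 or C42 or pregnant gilts P41 or P43 (up to 0.0143), and EBP without cyclic gilt C42 or pregnant gilt P39 (up to 0.0112). Leaving out cyclic gilt C42 lowered the count of calls from 11 to 6. The likelihood ratio test of edgeR's robust GLM, which the study itself applied, called 17 of the 33 in LE, all lower, where it called 11.8% of all genes tested.

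The epithelial marker sum was also lower in pregnant LE (0.685-fold of the cyclic mean), and the groups did not overlap. With libraries scaled to that sum, an alternative added after the data were seen, the median of all genes in LE moved to 0.53 on the log2 scale, and 9 of the 11 genes were still called as lower, where 99 of all 12002 genes were called as lower and 1183 as higher. SQLE (adjusted p = 0.0109) and LSS (adjusted p = 0.0164) were not, while HMGCS1 kept a log2 fold change of −2.46. The 5 smooth muscle markers summed to 154 to 381 CPM in cyclic and 93.2 to 115 CPM in pregnant LE. The other non-epithelial marker sums had higher means in pregnant than in cyclic LE, with overlapping ranges. They were 1.68-fold for the 5 endothelial, 1.31-fold for the 5 leukocyte and 1.21-fold for the 6 fibroblast markers. The part of cell composition in the result was not tested further.

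Promoters are shown for 3 of the genes that fell in LE and for SREBF2, because they hold matches to the letters of motifs used by SREBPs and their partner NF-Y. RefSeq gene starts on Sscrofa11.1 (NCBI Annotation Release 106) were taken, with 250 bases before and 50 bases from the start on, and sequences run 5′ to 3′ on the gene's strand. Capitals mark TCACNCCAC, the core of a sterol regulatory element, and CCAAT, the NF-Y motif, each on either strand, so that CCAAT may read as ATTGG.
HMGCS1: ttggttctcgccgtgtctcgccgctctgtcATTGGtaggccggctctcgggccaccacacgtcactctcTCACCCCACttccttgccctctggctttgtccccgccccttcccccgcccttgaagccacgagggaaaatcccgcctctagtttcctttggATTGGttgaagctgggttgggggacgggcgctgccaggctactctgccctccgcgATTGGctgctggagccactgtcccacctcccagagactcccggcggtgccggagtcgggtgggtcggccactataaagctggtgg
MVD: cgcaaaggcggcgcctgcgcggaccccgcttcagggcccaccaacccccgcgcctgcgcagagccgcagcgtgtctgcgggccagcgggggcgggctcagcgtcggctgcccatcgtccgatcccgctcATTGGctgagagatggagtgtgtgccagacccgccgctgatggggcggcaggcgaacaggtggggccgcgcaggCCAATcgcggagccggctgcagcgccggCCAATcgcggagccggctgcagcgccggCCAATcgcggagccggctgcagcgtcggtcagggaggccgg
STARD4: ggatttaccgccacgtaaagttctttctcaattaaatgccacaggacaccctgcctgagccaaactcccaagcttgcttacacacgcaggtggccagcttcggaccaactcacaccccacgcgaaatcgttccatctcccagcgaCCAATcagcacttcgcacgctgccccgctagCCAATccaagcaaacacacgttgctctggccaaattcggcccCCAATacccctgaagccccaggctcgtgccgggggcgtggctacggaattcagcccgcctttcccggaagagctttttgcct
SREBF2: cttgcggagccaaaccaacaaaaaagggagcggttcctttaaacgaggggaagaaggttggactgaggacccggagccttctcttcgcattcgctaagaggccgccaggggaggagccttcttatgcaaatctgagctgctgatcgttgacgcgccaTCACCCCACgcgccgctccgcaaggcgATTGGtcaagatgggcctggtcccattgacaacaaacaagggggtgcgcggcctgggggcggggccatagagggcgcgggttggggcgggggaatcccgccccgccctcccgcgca
These windows lie at chr16:27957212-27957511 (minus strand) for HMGCS1, chr6:1007850-1008149 (plus) for MVD, chr2:116257094-116257393 (minus) for STARD4 and chr5:6784675-6784974 (minus) for SREBF2. Among the 4 promoters shown, TCACNCCAC occurred in HMGCS1 181 bases before the start and in SREBF2 93 bases before it. Of all 20643 promoters read, 0.877% held it; other matches among the 33 genes are not given here, so the pair is not a count over the genes. CCAAT occurred in 9 of the 11 genes called in LE, with 3 matches in HMGCS1 and STARD4 and 4 in MVD and EBP, against 35.7% of all promoters and 35.7% of those of genes tested in LE. Over all 33 genes it occurred in 21. The synthesis genes not called in LE (MVK, PMVK, FDPS, FDFT1, NSDHL, HSD17B7 and DHCR7) each held it too. GGGCGG, the Sp1 motif, also occurred in 9 of the 11 and in 29 of the 33, against 48.9% of all promoters and 62.9% of those of genes tested in LE. CACGTG, an E-box, occurred in 1 of the 11 and in 4 of the 33, against 7.64% and 9.49%. A match describes letters and shows no binding.

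Of the 5 genes that control SREBP, none was called in LE by the quasi-likelihood test, and all 5 had negative log2 fold changes (median −0.60). INSIG1, which retains SCAP and is itself an SREBP target, had 16.4, 43.6, 57.5 and 71.7 CPM in cyclic and 6.05, 8.14, 13.1 and 25.9 CPM in pregnant LE (log2 fold change −1.84, SE 0.54, adjusted p = 0.061). The groups overlapped, with cyclic gilt C40 below pregnant gilt P43, and the robust GLM test and DESeq2 called the gene. INSIG2, its relative, had 63.96, 86.7, 143 and 192 CPM in cyclic and 78.4, 82.1, 97.1 and 110.4 CPM in pregnant LE (log2 fold change −0.40, SE 0.33, adjusted p = 0.479). SREBF1, which encodes SREBP1, had 18.9, 19.9, 25.1 and 28.1 against 6.68, 9.60, 13.99 and 16.97 CPM and was lower in every pregnant library (log2 fold change −0.92, SE 0.30, adjusted p = 0.0768). SREBF2, which encodes SREBP2, the main activator of the synthesis genes, had 151, 153, 175 and 246 against 92.6, 109, 123 and 151 CPM (log2 fold change −0.60, SE 0.23, adjusted p = 0.128). Its groups met at the top of the pregnant and the bottom of the cyclic range. SCAP, the escort protein, had 42.5, 43.7, 45.3 and 69.04 against 33.3, 41.8, 41.9 and 42.6 CPM (log2 fold change −0.31, SE 0.19, adjusted p = 0.337), with 1 library standing apart in each group. For SCAP and INSIG2 the sign turned positive when libraries were scaled to the epithelial markers, at 0.24 and 0.12. SREBP activity depends on cleavage of the protein, which these counts do not measure.

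In GE the same 5 genes had no call and no common direction: INSIG1 had 11.9, 23.97, 44.6 and 58.7 CPM in cyclic and 38.2, 61.5 and 69.7 CPM in pregnant GE (log2 fold change 0.67), and INSIG2 had 37.8, 48.1, 51.1 and 59.5 against 58.6, 80.1 and 85.9 CPM (0.59). SREBF1, SREBF2 and SCAP had log2 fold changes of −0.60, −0.50 and −0.33 in GE. In BV and S the 5 log2 fold changes lay between −0.19 and 0.36. The difference of the INSIG1 effect between LE and GE was −2.49 (SE 0.64, adjusted p = 0.0279 in the joint quasi-likelihood fit) and was not called at the 1% rate.

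**Figure D2:**
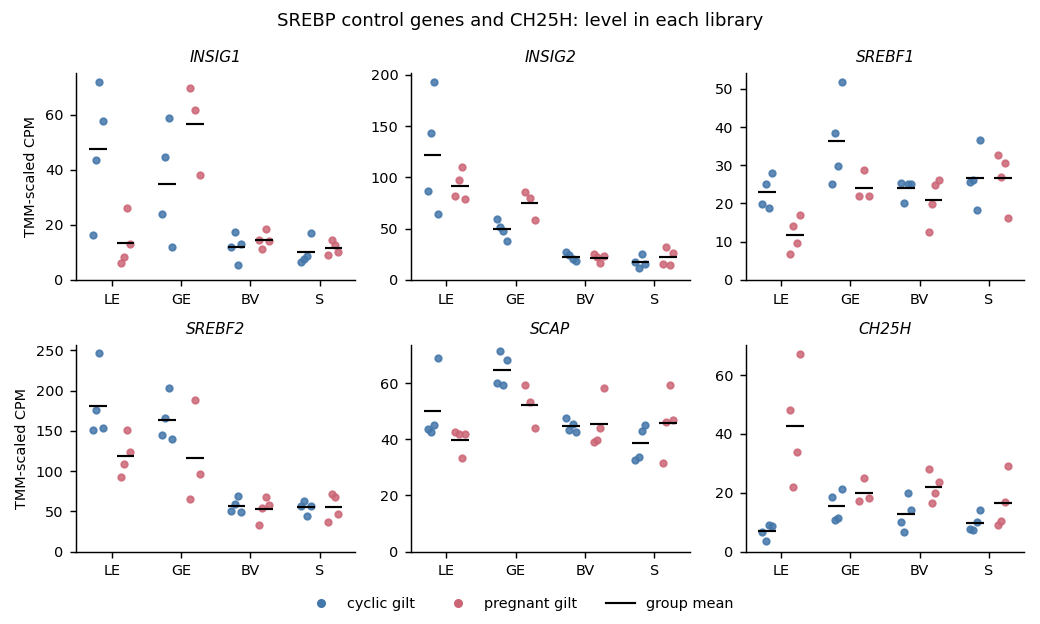
TMM-scaled CPM (vertical axes, from 0) of the 5 SREBP control genes and of CH25H in LE, GE, BV and S; points are libraries of cyclic (blue) and pregnant (red) gilts and bars are group means. INSIG1 overlaps between states in LE, while the 4 pregnant LE libraries of CH25H lie above the 4 cyclic ones.

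The LXR and efflux genes did not fall with the synthesis genes in LE. All 5 had positive log2 fold changes there and none was called: MYLIP, a ubiquitin ligase induced by LXR, had 1.14 (adjusted p = 0.0532), and the LXR genes NR1H3 and NR1H2 had 0.66 and 0.14. ABCG1 and ABCA1, which export cholesterol, had 0.62 and 0.05. The same direction was not particular to LE. All 5 also had positive log2 fold changes in BV and in S (medians 0.41 and 0.39), and 3 of the 5 did in GE. Of all genes tested in LE, 50.6% had a negative log2 fold change. The mean level of ABCA1 was 1108 ± 126 CPM in LE of cyclic gilts and 1139.5 ± 68.5 CPM in LE of pregnant ones. MYLIP had 18.5, 32.5, 32.5 and 35.6 CPM in cyclic and 43.7, 52.2, 55.4 and 111 CPM in pregnant LE, with no overlap, but the difference did not pass the test. With the epithelial scaling MYLIP and NR1H3 were called as higher in LE, where that scaling also raised the median of all genes.

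Of the 6 genes of uptake, transfer and storage, 1 was called in LE. STARD4 (chr2:116235821-116257143), which carries cholesterol between membranes, had 44.4, 55.5, 58.2 and 67.5 CPM in cyclic and 5.41, 5.57, 9.51 and 11.2 CPM in pregnant LE, a 7.12-fold lower mean (log2 fold change −2.83, SE 0.28, adjusted p = 0.00105). Every pregnant library lay well below the lowest cyclic one. NPC1, the lysosomal cholesterol exporter, had a log2 fold change of −1.10 (adjusted p = 0.0725), and its partner NPC2 had 0.62. SCARB1, the high-density lipoprotein receptor, and SOAT1, which esterifies cholesterol for storage, had −0.10 and −0.14. LRP2, a large endocytic receptor for lipoproteins and vitamin carriers, had 455, 489.6, 760.4 and 2538 CPM in cyclic and 112, 137, 432 and 604 CPM in pregnant LE (log2 fold change −1.71, adjusted p = 0.152), and cyclic gilt C128 held the highest value.

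In GE the differences ran mostly the same way but few passed the test. Of the 33 genes, 24 had negative log2 fold changes (median −0.50 against −0.01 over 11905 genes), and in 11 all 3 pregnant libraries lay below all 4 cyclic ones, as in 11.3% of the genes tested. The quasi-likelihood test called 1 gene, HMGCS1, where it called 0.748% of all genes and 0.235% as lower. HMGCS1 had 154, 169, 195 and 202 CPM in cyclic and 52.7, 53.8 and 69.5 CPM in pregnant GE, with no overlap (log2 fold change −1.63, SE 0.18, adjusted p = 0.0276), which passed the limit on the unadjusted p, and the call held without any 1 library, while the count of calls was 3 without cyclic gilt C40 and 2 without cyclic gilt C128. The robust GLM test called 9 of the 33 in GE, all lower, where it called 6.66% of all genes. SCARB1 had 35.2, 43.6, 45.8 and 59.6 CPM in cyclic and 8.91, 16.9 and 18.2 CPM in pregnant GE and did not pass the test (log2 fold change −1.66, SE 0.30, adjusted p = 0.0451), nor did STARD4 (log2 fold change −1.95, SE 0.37, adjusted p = 0.0478). LSS had a log2 fold change of −1.33, FDPS −1.59, SOAT1 −1.97 and MSMO1 −1.05 in GE. FDFT1 had the opposite sign, at 0.62.

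In BV, 26 of the 33 genes were detectable, and the 3 called ones were higher in pregnant gilts (HSD17B7, ABCG1 and LRP2), while 1.86% of the 11096 genes tested were called and 1.30% were called as higher. LRP2 had 6.81, 6.89, 7.65 and 9.08 CPM in cyclic and 19.03, 31.2, 34.9 and 39.4 CPM in pregnant BV (log2 fold change 2.04, SE 0.25, adjusted p = 0.013). ABCG1 had 15.7, 16.5, 23.2 and 29.7 CPM in cyclic and 60.1, 63.1, 84.5 and 93.05 CPM in pregnant BV (log2 fold change 1.83, SE 0.24, adjusted p = 0.013). HSD17B7 had 3.70, 5.10, 5.39 and 6.29 CPM in cyclic and 11.4, 13.4, 18.9 and 21.1 CPM in pregnant BV (log2 fold change 1.66, SE 0.28, adjusted p = 0.0163), and its call was lost without any 1 library other than that of pregnant gilt P139 (adjusted p up to 0.0559). The groups did not overlap for any of the 3, which a call makes likely, so this adds no separate support. The share of all genes in BV without overlap was not computed. The robust GLM test called 5 of the 26 in BV, 4 higher and 1 lower, where it called 11.0% of all genes. In the same libraries the 6 epithelial markers summed to 2.56 to 40.2 CPM in cyclic and 129 to 236 CPM in pregnant BV, and FOXA2, a marker of glandular epithelium, stood at 0.284 to 2.10 CPM in cyclic and 4.21 to 22.8 CPM in pregnant BV. The 3 genes had higher levels in LE or GE than in BV: LRP2 a mean of 1061 CPM in cyclic LE, HSD17B7 of 139.4 CPM in cyclic LE, and ABCG1 of 230.2 CPM in cyclic GE. In pregnant gilts the means in LE and GE were 321 and 184 CPM for LRP2, 36.0 and 68.5 for HSD17B7, and 29.3 and 190 for ABCG1. Pregnant BV had means of 31.1, 16.2 and 75.2 CPM, so ABCG1 was lower in pregnant LE than in pregnant BV. The part of epithelial RNA in these results was not tested. Of the 17 synthesis genes 10 were tested in BV, and none of these 10 was called as lower; HMGCS1 had 70.8 ± 21.9 CPM in cyclic and 51.1 ± 8.61 CPM in pregnant gilts, and the 5 smooth muscle markers together had 0.287-fold of their cyclic mean in pregnant BV.

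**Figure D3:**
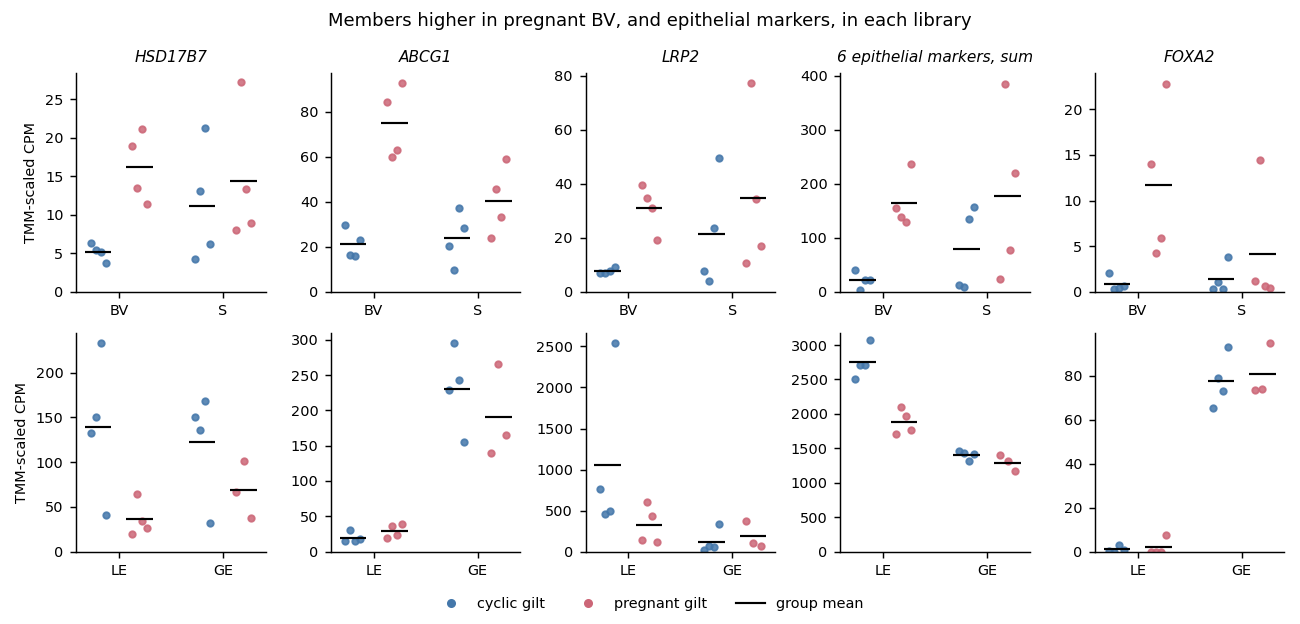
TMM-scaled CPM (vertical axes, from 0, with a scale of their own per panel) of the 3 genes called as higher in pregnant BV, of the sum of 6 epithelial markers and of FOXA2, in BV and S (top row) and in LE and GE (bottom row); points are libraries of cyclic (blue) and pregnant (red) gilts and bars are group means. In BV the pregnant libraries lie above the cyclic ones in all 5 panels.

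In S, 28 of the 33 genes were detectable and none was called by the quasi-likelihood test, the robust GLM test or DESeq2. Of all 11935 genes these called 0.293%, 3.16% and 2.60%. At an unadjusted p under 0.05 there were 3 of the 28, against 14.5% of all genes. HMGCS1 had 48.1, 50.8, 69.6 and 78.1 CPM in cyclic and 37.2, 39.8, 51.2 and 78.3 CPM in pregnant S, and the ranges overlapped. The log2 fold changes of the 28 lay between −0.73 for LSS and 0.82 for MYLIP.

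**Figure D4:**
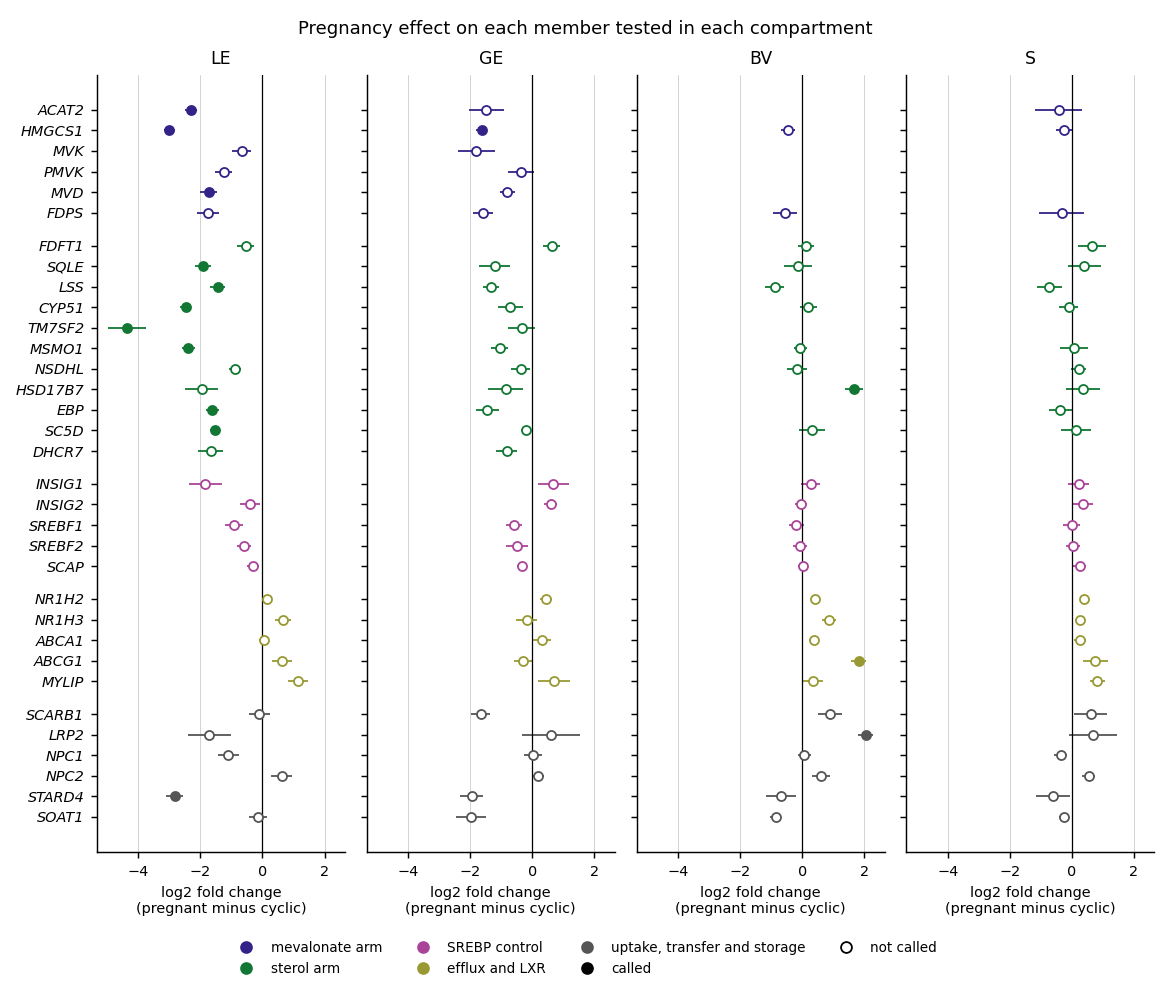
Log2 fold change of pregnant against cyclic gilts (horizontal axes, with SE bars) for each of the 33 genes in the compartments where it was detectable, ordered by role; filled points were called. In LE the 17 synthesis genes all lie left of 0 and the 5 efflux and LXR genes right of it; in BV and S the 1 synthesis gene called is HSD17B7, to the right in BV.

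Whether the pregnancy effect differed between compartments was tested in 1 quasi-likelihood fit of all libraries with the gilt as a block, over the 9727 genes detectable in all 4 compartments, 26 of the 33 among them. The effect of 4 genes differed between compartments (HMGCS1, CYP51, MSMO1 and HSD17B7), where 3.05% of all genes did. Against BV, 5 genes had a lower effect in LE, where 3.37% of all genes were called in either direction. The LE minus BV difference was −2.50 for HMGCS1 (SE 0.32, adjusted p = 7.02e-05), −2.63 for CYP51 (SE 0.44, adjusted p = 0.000768) and −2.29 for MSMO1 (SE 0.43, adjusted p = 0.00186). It was −3.52 for HSD17B7 (SE 0.52, adjusted p = 0.000244) and −3.60 for LRP2 (SE 0.82, adjusted p = 0.00825), both of which were called as higher in pregnant BV. Against S, 3 genes had a lower effect in LE (1.48% of all genes were called), with differences of −2.68 for HMGCS1 (adjusted p = 7.19e-05), −2.31 for CYP51 (adjusted p = 0.00428) and −2.28 for MSMO1 (adjusted p = 0.00359). Against GE no gene was called, where 1.54% of all genes were, and 12 of the 26 had an unadjusted p under 0.05, against 18.6% of all genes. The LE minus GE difference was −1.44 for HMGCS1 (SE 0.33, adjusted p = 0.0137), and all 10 synthesis genes in this fit had negative values. A larger effect in LE than in GE was thus not shown for any of the 26 at the 1% rate.

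The HMGCS1 differences against BV and S held without any 1 gilt, as did those of CYP51 and HSD17B7 against BV. The LE minus BV call of LRP2 was lost without any 1 of the 8 gilts (adjusted p up to 0.0274) and without the block (0.0523), and that of MSMO1 without cyclic gilts C40 or C78. Against S, the CYP51 call was lost without cyclic gilts C40 or C42 or pregnant gilts P39, P41 or P139, and the MSMO1 call without cyclic gilts C40 or C42 or pregnant gilts P41 or P139, so that with cyclic gilt C40, cyclic gilt C42, pregnant gilt P41 or pregnant gilt P139 left out 1 gene remained. The count of genes whose effect differed between compartments fell from 4 to 2 without cyclic gilt C40, cyclic gilt C42 or pregnant gilt P139 and to 1 without pregnant gilt P39, and the count against BV fell from 5 to 3 without cyclic gilts C40 or C78. Against GE, 1 gene was called without cyclic gilt C128.

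In cyclic gilts most of these genes were at a higher level in LE than in S. Levels were compared in another joint fit of the same form, over the genes detectable in at least 1 compartment. By that fit, 26 of the 33 differed between LE and S in cyclic gilts, 24 of them higher in LE. Of the 13887 genes tested, 39.5% were called and 21.2% were higher in LE. In cyclic gilts all 17 synthesis genes were called as higher in LE (median log2 difference 3.28), and in pregnant gilts 8 of the 17 were (median 0.97). These 2 counts are not a test of the change between the states. The LE minus S effect given above tested that change for 10 of the 17 and called 3. In pregnant gilts 14 of the 33 differed between LE and S, 12 of them higher in LE, against 31.1% of all genes called and 17.2% higher in LE, and the count was 9 without pregnant gilt P39. HMGCS1 was 2.78 higher on the log2 scale in cyclic LE (SE 0.24, adjusted p = 3.04e-08), and in pregnant gilts the difference was 0.08 (SE 0.23, adjusted p = 0.802). The largest differences in cyclic gilts were those of LRP2 (5.69), FDPS (4.86) and SQLE (4.26), and in pregnant gilts those of FDPS (3.32), LRP2 (3.19) and FDFT1 (2.89). In S, FDPS had 6.56, 18.5, 75.3 and 75.4 CPM in cyclic and 10.3, 25.5, 38.6 and 66.2 CPM in pregnant gilts, and the epithelial marker sum there ranged from 8.38 to 385 CPM; its part in the level was not tested. FDFT1 had 189, 194, 322 and 423 CPM in pregnant LE and 18.2, 27.6, 40.5 and 65.2 CPM in pregnant S. Lower in LE than in S were NPC2 in both states (−1.33 and −1.27), NR1H3 in cyclic gilts (−0.98) and SREBF1 in pregnant gilts (−1.18).

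**Figure D5:**
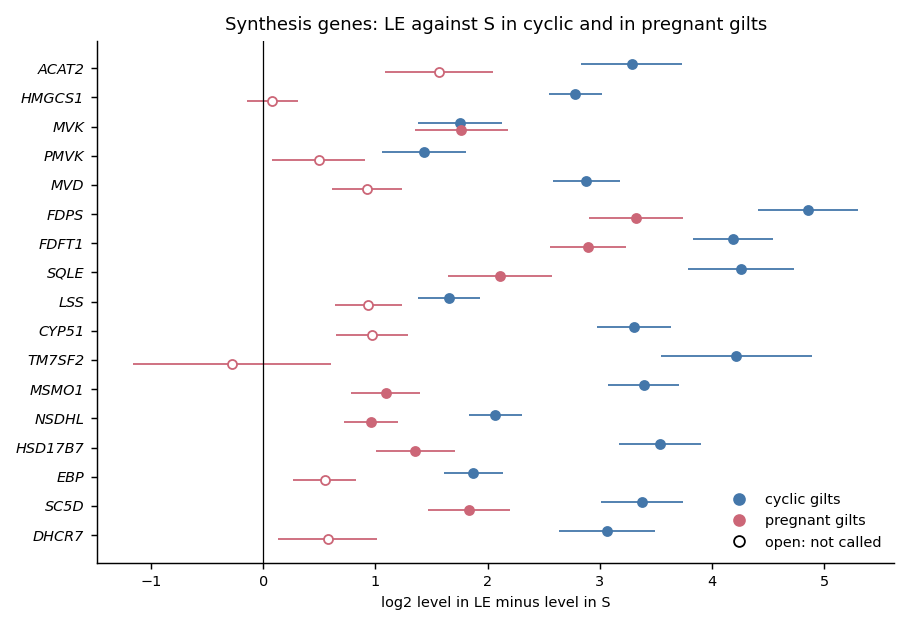
Log2 level in LE minus level in S (horizontal axis, with SE bars) for the 17 synthesis genes in cyclic (blue) and pregnant (red) gilts, from the joint fit with the gilt as a block; open points were not called. All 17 cyclic points are filled and 8 of the 17 pregnant ones are, and HMGCS1 moves from 2.78 to 0.08.

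Between LE and GE, 12 of the 33 differed in cyclic gilts, 10 of them higher in LE, where 30.3% of all genes were called and 19.3% were higher in LE. FDPS was 4.06 higher on the log2 scale in cyclic LE (adjusted p = 4.08e-07) and LRP2 3.41 (adjusted p = 7.84e-05). ABCG1 was the reverse, at 14.3, 15.1, 17.9 and 30.5 CPM in cyclic LE and 155, 228, 242 and 295 CPM in cyclic GE (log2 difference −3.56, adjusted p = 4.85e-07), and SOAT1 was also lower in LE (−1.84). In pregnant gilts 10 of the 33 differed between LE and GE, 6 higher and 4 lower in LE, against 25.0% of all genes. The totals of 12 and 10 were thus near the shares of all genes. FDPS stayed higher in LE (3.45), SCARB1 had 47.05, 119, 138.7 and 139.1 CPM in LE and 8.91, 16.9 and 18.2 CPM in GE (2.98, adjusted p = 0.000725), and TM7SF2 had 0, 0.428, 0.960 and 1.29 CPM in LE and 2.36, 3.88 and 6.30 CPM in GE (−2.83, adjusted p = 0.00914). INSIG1 was lower in pregnant LE than in pregnant GE (−2.13, adjusted p = 0.00191), as was SREBF1 (−1.05). That count of 10 ranged from 4, without pregnant gilt P39, to 11, and was 5 without pregnant gilt P43 and 6 without cyclic gilts C40, C42 or C78. None of the 33 was called between BV and S in either state by edgeR's quasi-likelihood test, where 3.28% of all genes were in cyclic and 0.101% in pregnant gilts, and 6 and 4 of the 33 had an unadjusted p under 0.05 (22.0% and 15.3% of all genes).

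Of 42 further genes of the pathway (SREBP processing and sterol-controlled degradation, the isoprenoid branch, sterol transport and ester hydrolysis, and oxysterol and steroid use), 40 were matched and 35 were tested in LE, 18 higher and 17 lower (median log2 fold change 0.06), and 1 of the 35 was called, a share near the 3.32% of all genes. It was CH25H, which makes 25-hydroxycholesterol, an oxysterol that retains SREBPs and activates LXRs. CH25H (chr14:101122318-101128622) had 3.71, 6.55, 8.83 and 8.87 CPM in cyclic and 21.99, 33.9, 48.05 and 67.1 CPM in pregnant LE, with no overlap (log2 fold change 2.62, SE 0.41, adjusted p = 0.0059). Its effect was higher in LE than in GE by 2.38 (SE 0.42, adjusted p = 0.00224). The LE call was lost without cyclic gilts C40, C42 or C128 or pregnant gilts P39, P43 or P139 (adjusted p up to 0.0234), and the LE minus GE call without cyclic gilts C40 or C42 or pregnant gilts P39 or P139 (up to 0.015) and without the block (0.0216). The effect on ABCA2, an ATP-binding cassette transporter, differed from that in BV and S: it had 159, 165, 167 and 299 CPM in cyclic and 57.6, 94.9, 98.6 and 104 CPM in pregnant LE, and the LE minus BV and LE minus S differences were −1.83 (adjusted p = 8.19e-05) and −1.53 (adjusted p = 0.000697). In BV the same gene had 44.00, 64.1, 66.7 and 67.2 CPM in cyclic and 88.8, 95.5, 99.4 and 113 CPM in pregnant gilts. CH25H shares 213 exonic bases with LOC102164066 on the opposite strand. CH25H and ABCA2 were the 2 of 31 further genes whose effect differed between compartments in the joint fit, where 3.05% of all genes did. None of the further genes was called in GE (33 tested), BV (31) or S (33) by edgeR's quasi-likelihood test, which called 0.748%, 1.86% and 0.293% of all genes there, and 10, 12 and 3 had an unadjusted p under 0.05, against 23.0%, 28.5% and 14.5% of all genes.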

How the data were processed

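Laser-captured LE, GE, BV and S of Day 14 endometrium were sequenced by the authors, who used Trim Galore for trimming, Hisat2 for alignment (genome Sscrofa11.1), NUGEN nudup to remove duplicates and QuasR to count reads per NCBI gene. The deposited values are raw counts per gene and library, in full tables and in tables of detectable genes kept by the authors' CPM cut-off. Whether reads were counted by strand is not given in the sources used here. All deposited count columns were used (0 were left out), and totals of 2415216 to 7081556 counts set the precision. No 2 libraries of a group differed by less than sampling noise (lowest chi-square per gene 6.94).

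Each compartment was fitted by itself on its detectable genes with TMM factors and edgeR's quasi-likelihood F test (edgeR 4.0.16, R 4.3.3), pregnant against cyclic. The call limit in GE, BV and S was the largest p called in LE, after the study's procedure. Levels and differences between compartments came from 1 such fit of all 31 libraries with the gilt as a block, at a false discovery rate of 1%. The block rests on the gilt numbers in the labels: deviations of libraries of the same gilt correlated with a median of 0.165 (45 pairs, 34 over 0.1), those of other gilts of the same state with −0.0478 (135 pairs, 8 over 0.1). Deviations were taken from the group mean. Positive values within a gilt then push those of other gilts below 0, so the second median is no independent comparison. Cyclic and pregnant gilts were different animals, so the pregnancy comparison was not paired. The scripts were tested on simulated counts. DESeq2 1.42.0, the robust GLM of edgeR, another normalization, other filters, a 5% rate and the loss of each library were tried as alternatives, and tables were assembled with Python 3.11.15 and pandas 2.3.3.

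The genes and lists were chosen with earlier results of these data known. Genes named with values per library were those called in a compartment or as differing between compartments, the 5 SREBP control genes, and the 3 with the largest called difference in each level contrast. Other genes were named by their log2 fold change, and further values were added after they were seen. The promoter of a further gene and its motif matches are not reported here.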

Additional observations from a re-analysis of the deposited data

Results flagged for a closer look

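In 9 of 124 groups of 4 libraries tested by Dixon's criterion, 1 library stood apart from the other 3, where chance flags about 1 in 20. In cyclic LE, gilt C128 was high for SCAP (69.0 CPM, next 45.3) and for LRP2 (2538 CPM, next 760). Cyclic gilt C128 was also high for LRP2 in GE (342 CPM, next 64.0) and for TM7SF2 in S (1.93 CPM, next 0.365). In pregnant LE, gilt P43 was low for SCAP (33.3 CPM, next 41.8). In cyclic BV, gilt C78 was high for FDPS (22.1 CPM, next 16.1), and gilt C42 was high for TM7SF2 (6.53 CPM, next 2.997) and low for SREBF1 (20.2 CPM, next 25.1). In pregnant S, gilt P139 was high for SCARB1 (229 CPM, next 87.2).

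By the joint quasi-likelihood fit the pregnancy effect differed between compartments for 4 of the 26 genes tested and for 2 of 31 further pathway genes. Among all genes 3.05% did. In that fit the adjusted p was 8.53e-05 for HMGCS1, 0.00232 for CYP51, 0.00335 for MSMO1 and 0.00126 for HSD17B7. Of the further genes, ABCA2 had 0.000188 and CH25H 0.00363. The LE effect minus the BV effect was −2.50 for HMGCS1, −2.63 for CYP51, −2.29 for MSMO1, −3.52 for HSD17B7, −3.60 for LRP2 and −1.83 for ABCA2 on the log2 scale. The LE effect minus the S effect was −2.68 for HMGCS1, −2.31 for CYP51, −2.28 for MSMO1 and −1.53 for ABCA2. The LE effect minus the GE effect was 2.38 for CH25H.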

How the results depend on the processing

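The robust GLM called 17 genes in LE, 9 in GE and 5 in BV (11.8%, 6.66% and 11.0% of all genes), and DESeq2 called 17, 8 and 5 (11.2%, 6.64% and 8.5%), against 11, 1 and 3 by the quasi-likelihood test. Without a filter on low counts GE had 3 (0.621% of all genes). At a 5% rate LE had 16, GE 4 and BV 5 (10.7%, 1.86% and 8.63% of all genes). In the joint fits at that rate 7 genes differed between compartments (9.49% of all genes), 6 in LE minus GE (4.85%), 19 between LE and GE in cyclic and 16 in pregnant gilts (42.4% and 37.5%), and 1 between BV and S in cyclic gilts (8.53%). With libraries scaled to the epithelial markers, an alternative added after the data were seen, INSIG2 and SCAP turned positive in LE (0.12 and 0.24). The cause was not tested.

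Without the replicate block, the joint fit, then unpaired, lost the LE minus BV call of LRP2 (adjusted p = 0.0523 by edgeR) and the LE minus GE call of CH25H (0.0216). It called 3 genes as differing between compartments (2.09% of all genes), 0 in LE minus GE (1.09%), 4 in LE minus BV (2.60%) and 3 in LE minus S (0.905%). Between LE and GE it called 9 of the 33 in cyclic and 8 in pregnant gilts, near the shares of all genes (27.8% and 23.5%). Between LE and S it called 26 and 13 (37.6% and 28.3%), and between BV and S 0 and 0 (2.53% and 0.0720%).

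With 1 library or gilt left out, the counts were 6 to 10 in LE, 1 to 3 in GE, 2 to 3 in BV and 0 to 0 in S. In the joint fit they were 1 to 5 for a difference between compartments, 0 to 1 in LE minus GE, 3 to 5 in LE minus BV and 1 to 4 in LE minus S. Between LE and GE they were 8 to 13 in cyclic and 4 to 11 in pregnant gilts, between LE and S 23 to 26 and 9 to 15, and between BV and S 0 to 0 in both. Shares over all genes were not computed for these fits.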
